A study of Mus musculus with 26 samples.

Results

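Aβ RA-LTMRs were compared with Aβ Field-LTMRs, a pair of large-diameter touch neurons of mouse dorsal root ganglia that both end on hair follicles. The comparison takes 8 of the 26 libraries of the series, chosen by their labels as 5 libraries of Aβ RA-LTMRs and 3 of Aβ Field-LTMRs. The other 18 libraries cover 6 further somatosensory subtypes and entered the fit to share the estimate of spread between replicates. Each library is bulk RNA from fluorescent neurons sorted from dissociated ganglia of all axial levels, with cells of several mice and several sorts combined, so p-values measure the spread between such pools.

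The Aβ RA-LTMRs came from Npy2r-GFP mice that received no tamoxifen, in which GFP follows the promoter of a neuropeptide Y receptor gene. The Aβ Field-LTMRs came from TrkCCreER;Retf(GFP) mice given tamoxifen at 2 mg per day on postnatal days 13 and 14, or 14 and 15. There, Cre activity depends on the Ntrk3 (TrkC) locus and the reporter on the Ret locus, which both groups of neurons use. All mice were adult, at postnatal day 23 or later. Subtype, driver line, reporter allele and tamoxifen changed together between the groups and cannot be told apart. In bulk RNA, fewer cells of a type and less RNA per cell cannot be told apart either.

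Low-threshold mechanoreceptors (LTMRs) signal gentle touch. Aβ RA-LTMRs adapt rapidly to sustained indentation and form lanceolate endings, palisades of parallel blades along the hair shaft that respond to hair deflection. Aβ Field-LTMRs form circumferential endings that wrap around hair follicles; each neuron spreads over many follicles, responds weakly to a single hair's movement and signals stroking across a wide field of skin. The comparison therefore sets a pair of Aβ fibre types that share a target organ, the hair follicle, but differ in the shape of the ending.

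Gene counts summed to between 22651313 and 55983697 per Aβ RA-LTMR library, and to between 10706522 and 49999958 per Aβ Field-LTMR library, the lowest being Aβ Field-LTMR library 2. Aβ RA-LTMR libraries 1 to 3 had reads of 25 to 50 bases, and Aβ RA-LTMR libraries 4 and 5 and all Aβ Field-LTMR libraries reads of 15 to 50 bases. Across genes, log2 CPM (counts scaled to library size with TMM factors) correlated at r = 0.949 to 0.985 among Aβ RA-LTMR libraries, 0.962 to 0.970 among Aβ Field-LTMR libraries and 0.917 to 0.959 between the groups. Aβ RA-LTMR library 5 stood furthest from its group, with 45.7% of mapped reads in exons. Without it the correlations among Aβ RA-LTMR libraries were 0.968 to 0.985.

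The genes behind the labelling were read first. Npy2r, the neuropeptide Y receptor gene whose promoter marks Aβ RA-LTMRs, stood at 15.4, 25.9, 25.1, 19.9 and 15.6 CPM in Aβ RA-LTMR libraries 1 to 5, against 2.33, 5.68 and 3.15 CPM in Aβ Field-LTMR libraries 1 to 3. Every Aβ RA-LTMR library lay above every Aβ Field-LTMR library. The log2 fold change of Aβ RA-LTMR over Aβ Field-LTMR was 2.52 ± 0.73 (SE; adjusted p = 0.018). Here and below, edgeR's quasi-likelihood test was used, with Benjamini-Hochberg adjustment over 17411 genes. The call on Npy2r ended in several other fits, among them Aβ RA-LTMR libraries 4 and 5 alone (2.32, adjusted p = 0.067) the fit without Aβ Field-LTMR library 1 (2.26, adjusted p = 0.078) and the fit without library 3 of that group (2.43, adjusted p = 0.075). Ntrk3, the neurotrophin-3 receptor gene that drives Cre in the Aβ Field-LTMR line, went the other way. It read 55.9, 44.6, 62.1, 57.6 and 26.2 CPM in Aβ RA-LTMR libraries, against 297, 134 and 153 CPM in Aβ Field-LTMR libraries. Its log2 fold change was -1.98 ± 0.29 (SE, adjusted p = 1.8e-05). Both genes were used to isolate the cells, so these values check the labels and are no result.

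Ret, the GDNF-family receptor tyrosine kinase gene needed by early Aβ afferents, averaged 565 ± 68 CPM in Aβ RA-LTMRs and 449 ± 77 CPM in Aβ Field-LTMRs (SD, n = 5 and 3), with overlapping libraries and adjusted p = 0.18. The Ret locus carries the reporter in the Aβ Field-LTMR line only, so Ret too is a labelling gene and no free observation. Ntrk2, the BDNF receptor gene TrkB, separated the groups cleanly. It lay between 423 and 474 CPM in the 5 Aβ RA-LTMR libraries, against 119, 129 and 78.7 CPM in the 3 Aβ Field-LTMR libraries (log2 fold change 2.01 ± 0.20, SE, adjusted p = 1.3e-07).

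Of 10 genes listed as Aβ RA-LTMR markers, 7 were higher in Aβ RA-LTMRs and 1 was lower, where a call needs an adjusted p below 0.05 and a log2 fold change of at least 1 in size. Among all 17411 genes tested, 4.80% were called higher and 5.47% lower. Of 6 genes listed as Aδ-LTMR markers, 5 were higher in Aβ RA-LTMRs too and 0 lower (1 lower by DESeq2). Ntrk2 and Colq are on both lists, and their means were higher in Aδ-LTMRs, at 523 and 16.7 CPM. The marker calls are therefore not particular to Aβ RA-LTMRs. Calb1, the calcium-binding protein calbindin, read 383, 493, 425, 190 and 365 CPM in Aβ RA-LTMR libraries, against 13.8, 46.0 and 8.51 CPM in Aβ Field-LTMR libraries. The lowest Aβ RA-LTMR library thus held more than the highest Aβ Field-LTMR library (log2 fold change 4.07 ± 0.59, SE, adjusted p = 2.9e-05). Cbln4, a secreted synapse organizer, averaged 13.9 ± 3.1 CPM in Aβ RA-LTMRs and 1.59 ± 1.5 CPM in Aβ Field-LTMRs, and Fscn1, the actin bundler fascin, 19.7 ± 4.5 and 2.69 ± 1.4 CPM in the same order (SD, n = 5 and 3). Colq, the collagen tail of acetylcholinesterase, averaged 5.66 ± 0.92 CPM in Aβ RA-LTMRs against 0.908 ± 0.22 CPM in Aβ Field-LTMRs. Its call ended once the fit held a satellite glia score, the mean log2 CPM of satellite glia markers (2.34, adjusted p = 0.074). Ptrf, the caveolar protein cavin, had a log2 fold change of 2.29 ± 0.58, but its libraries overlapped and the call ended with the same covariate (1.59, adjusted p = 0.21).

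Maf, a transcription factor of several LTMR types, was the marker that was lower, at 30.1 ± 3.2 CPM in Aβ RA-LTMRs and 61.2 ± 17 CPM in Aβ Field-LTMRs. Its log2 fold change of -1.02 sits at the size threshold and was -0.96 without Aβ RA-LTMR library 5 and -0.77 without Aβ Field-LTMR library 2, short of a call in both. Gfra2, a co-receptor of Ret, averaged 49.6 ± 7.6 CPM in Aβ RA-LTMRs and 47.5 ± 21 CPM in Aβ Field-LTMRs (adjusted p = 0.92), and Mafa stayed below 0.5 CPM in all 8 libraries. Npy2r, used to isolate the cells, is one of the 7 markers counted as higher and is no check of the label. Its mean was higher in peptidergic nociceptors (52.9 CPM) than in Aβ RA-LTMRs (20.4 CPM).

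Across all genes, 836 were higher in Aβ RA-LTMRs and 953 lower, out of 17411 tested, and in 1565 of these 1789 genes the libraries of the groups did not overlap. Of all genes tested, 20.9% did not overlap between the groups. The median log2 fold change over all genes was 0.02, and 0.12 when libraries were scaled by their totals alone, which gave 988 higher and 788 lower. With Aβ RA-LTMR libraries 4 and 5 alone, whose reads match the Aβ Field-LTMR libraries in length range, 808 genes were higher (4.64%) and 943 lower (5.42%). Not all were the same genes: 584 of the 836 (69.9%) and 611 of the 953 (64.1%) kept their call.

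**Figure D1:**
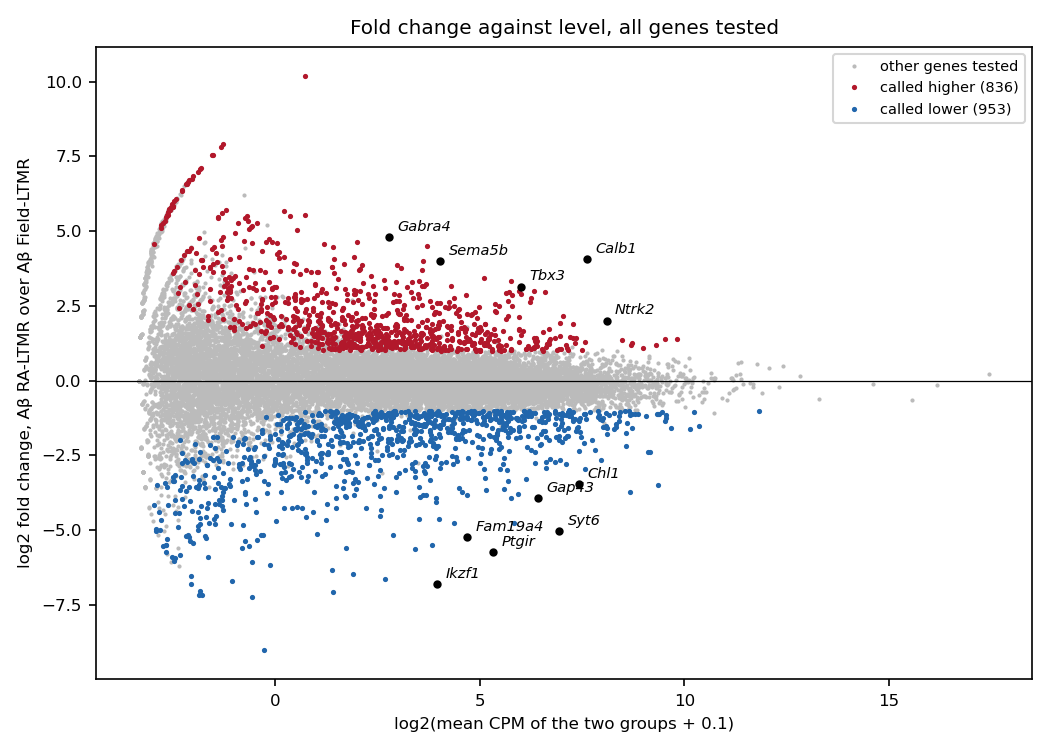
Each point is a gene, with the log2 of its mean CPM over both groups on the x axis and the log2 fold change of Aβ RA-LTMR over Aβ Field-LTMR on the y axis; red points are the 836 genes called higher, blue points the 953 called lower and grey points the rest. Called genes span the range of levels in both directions, and several named genes in black have fold changes beyond 3 on the log2 scale at levels above 10 CPM.

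Marker genes of nociceptors, the pain-sensing neurons of the same ganglia, differed between the groups. Of 12 nociceptor marker genes, edgeR called 11 lower in Aβ RA-LTMRs and 0 higher, with 0 higher at an unadjusted p under 0.05 and 0 by DESeq2. Scn10a, the sodium channel Nav1.8, read 19.5, 8.79, 22.2, 54.2 and 42.3 CPM in Aβ RA-LTMR libraries, against 229, 226 and 88.3 CPM in Aβ Field-LTMR libraries. P2rx3, an ATP-gated channel of nociceptors, averaged 5.36 ± 2.7 CPM in Aβ RA-LTMRs and 66.2 ± 15 CPM in Aβ Field-LTMRs (log2 fold change -3.65 ± 0.31, SE). Prdm12, a regulator that specifies nociceptors, averaged 3.48 ± 1.1 CPM in Aβ RA-LTMRs and 41.7 ± 8.4 CPM in Aβ Field-LTMRs. No marker was at 0 in all libraries of a group, and the 12 together summed to between 138 and 288 CPM in Aβ RA-LTMR libraries and to between 665 and 1222 CPM in Aβ Field-LTMR libraries.

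Set against the nociceptor subtype where each marker was higher, the median marker stood at 1.26% of that level in Aβ RA-LTMRs (range 0.452 to 7.28%) and at 7.13% in Aβ Field-LTMRs (range 3.79 to 22.8%). In Aβ Field-LTMRs the percentages differed between markers. Prdm12 and P2rx3 were among the highest, and Trpv1, the capsaicin receptor, was lowest at 1.84 ± 0.83 CPM in Aβ RA-LTMRs and 6.47 ± 2.4 CPM in Aβ Field-LTMRs. The call on Trpv1 ended in 5 of the 8 fits that leave out 1 library (Aβ RA-LTMR library 1, 4 or 5, or Aβ Field-LTMR library 2 or 3; adjusted p = 0.050 to 0.11) and with the satellite glia score (adjusted p = 0.18). Plxnc1, a semaphorin receptor on the same list, was not called (92.4 ± 3.9 CPM in Aβ RA-LTMRs, 85.8 ± 47 CPM in Aβ Field-LTMRs). The 6 C-LTMR markers had a median of 0.489% of their C-LTMR level in Aβ RA-LTMRs (range 0.0391 to 18.6%) and 2.26% in Aβ Field-LTMRs (range 0.706 to 19.4%). They did not all go the same way: 1 was called higher in Aβ RA-LTMRs, 3 lower and 2 not called. The marker called higher stood at 18.6% in Aβ RA-LTMRs and 4.12% in Aβ Field-LTMRs.

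**Figure D2:**
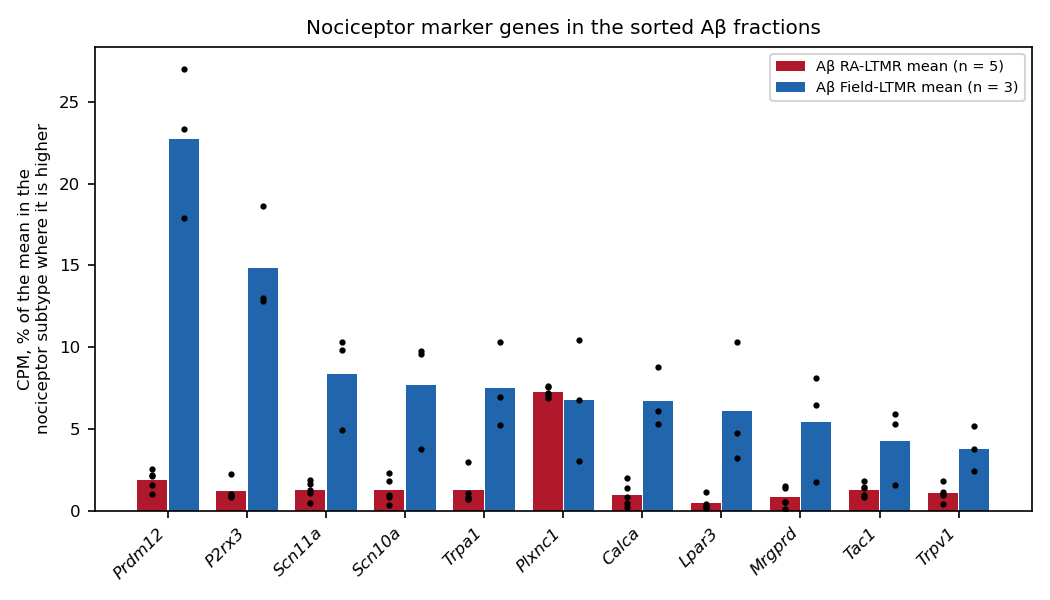
Mean CPM of nociceptor markers (11 of the 12) in Aβ RA-LTMRs (red bars, 5 libraries) and Aβ Field-LTMRs (blue bars, 3 libraries), as a percent of the mean in the nociceptor subtype where the marker is higher; black points are single libraries. Every plotted marker other than Plxnc1 stands higher in Aβ Field-LTMRs, with Prdm12 at 22.8% and Trpv1 at 3.79% there.

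A score of these markers, their mean log2 CPM, ran from 1.94 to 3.45 in Aβ RA-LTMR libraries and from 5.10 to 5.94 in Aβ Field-LTMR libraries, so it nearly stands for the group itself. With it as a covariate in the fit, a step added after the data were seen, 59 genes were called higher (0.339% of those tested) and 68 lower (0.391%), and 55 of the 836 and 49 of the 953 kept their call. The median SE was 0.863 with the covariate and 0.388 without it, and the median ratio of the SEs was 2.24. Of the 836 and the 953 genes, 830 and 889 kept their direction, with median log2 fold changes of 2.02 and -1.45 against 1.82 and -1.85 without the covariate. Whether sorted nociceptors, nociceptor RNA or the neurons' own transcripts gave these values was not tested.

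Among the 953 genes lower in Aβ RA-LTMRs, the Aβ Field-LTMR mean exceeded both nociceptor means in 423 (44.4%, against 33.9% of all genes tested). Aβ Field-LTMRs had the highest mean of the 8 subtypes in 267 of them, nonpeptidergic nociceptors in 248, peptidergic nociceptors in 183 and C-LTMRs in 103. Of the 836 genes higher in Aβ RA-LTMRs, the highest mean was in Aβ RA-LTMRs for 245, in proprioceptors for 274 and in Aδ-LTMRs for 110. Choosing genes by the contrast favours one or other group as the highest, so these counts are a description.

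Markers of satellite glia summed to 2386 to 4566 CPM in Aβ RA-LTMR libraries and to 1741 to 2603 CPM in Aβ Field-LTMR libraries. Of the 17 tested, 1 was higher, Apoe (1066 ± 573 CPM in Aβ RA-LTMRs, 410 ± 37 CPM in Aβ Field-LTMRs). No satellite glia marker was called lower by edgeR or DESeq2. At an unadjusted p under 0.05, 10 of the 17 were higher and 1 lower, and the median log2 fold change of the list was 0.58, against 0.02 over all genes. In the fit that holds the satellite glia score, 446 genes were higher (2.56% of those tested) and 755 lower (4.34%), against 836 and 953 without it. Apoe is part of that score, so that its call ended there (0.50, adjusted p = 0.43) follows from the construction. Of the genes called higher, 4 of 8 peptide and metabotropic receptor genes and 2 of 4 calcium channel genes were also called with the score, and of those called lower, 4 of 9 axon guidance genes and 2 of 4 calcium channel genes. Without Aβ RA-LTMR library 5 the log2 fold change of Apoe was 0.995, just short of the size for a call. Myelinating Schwann cell markers had 0 calls among 12 (edgeR and DESeq2), with 2 lower and 0 higher at an unadjusted p under 0.05, and summed to 553 to 765 CPM in Aβ RA-LTMR libraries against 771 to 1373 CPM in Aβ Field-LTMR libraries. Macrophage markers stayed under 3 CPM in sum in every library of both groups, with C1qa, Cd68 and Cx3cr1 at 0 in all Aβ Field-LTMR libraries.

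The genes with the largest differences were taken by a rule: the 12 largest fold changes in each direction among called genes that averaged at least 5 CPM in the higher group and whose libraries did not overlap. Predicted genes without a proper name, sex-linked genes and mitochondrially encoded genes were left out beforehand. So were the listed markers of glia, Schwann cells and other non-neuronal cells, so their absence here follows from the rule. Of the 12 higher in Aβ RA-LTMRs, 7 had their highest mean of all 8 subtypes in Aβ RA-LTMRs, and in none did a nociceptor or C-LTMR mean exceed the Aβ RA-LTMR mean. Gabra4, on mouse chromosome 5 (mm10, 71569749 to 71658308, minus strand), encodes a GABA-A receptor subunit. It led the list, with 12.3, 15.5, 12.2, 8.04 and 17.2 CPM in Aβ RA-LTMR libraries, against 0.346, 1.22 and 0.219 CPM in Aβ Field-LTMR libraries. Every Aβ RA-LTMR library held several times the CPM of the highest Aβ Field-LTMR library (log2 fold change 4.80 ± 0.57, SE, adjusted p = 1.4e-06).

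To show the sequence at the start of genes at each end of the range, the promoter windows of Gabra4 and Ptgir are printed. Each is the gene with the largest fold change in each direction among those that averaged at least 10 CPM in the higher group and had 1 promoter window in RefSeq. Each window runs from 250 bases before to 50 bases after the start (GRCm38.p6, RefSeq), in the direction of transcription, at chr5:71658259-71658558 on the minus strand for Gabra4 and chr7:16906240-16906539 on the plus strand for Ptgir. Capitals mark GC boxes, the letters GGGCGG or their reverse complement CCGCCC.
Gabra4: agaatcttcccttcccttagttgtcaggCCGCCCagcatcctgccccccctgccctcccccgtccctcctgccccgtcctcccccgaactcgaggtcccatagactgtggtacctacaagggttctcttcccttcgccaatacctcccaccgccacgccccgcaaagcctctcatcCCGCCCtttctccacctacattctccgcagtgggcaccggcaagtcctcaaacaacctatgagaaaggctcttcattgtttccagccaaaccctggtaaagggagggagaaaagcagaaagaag
Ptgir: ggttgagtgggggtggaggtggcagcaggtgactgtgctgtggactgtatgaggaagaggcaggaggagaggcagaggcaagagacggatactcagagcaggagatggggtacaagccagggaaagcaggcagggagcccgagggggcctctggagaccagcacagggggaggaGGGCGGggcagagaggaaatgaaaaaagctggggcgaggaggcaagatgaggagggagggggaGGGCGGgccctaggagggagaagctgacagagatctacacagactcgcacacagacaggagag
Each window holds 2 GC boxes, and neither holds a TATA box (TATAAA or TTTATA) or the Ikaros core TGGGAA or TTCCCA. GC boxes occurred in 56.7% of windows of genes higher in Aβ RA-LTMRs, 55.8% of windows of genes lower and 60.2% of windows of all genes tested. The Ikaros core, looked for because Ikzf1 is among the leading genes, occurred in 24.6%, 24.3% and 23.7% of the same sets. A match describes the letters and not a bound site.

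The other leading genes higher in Aβ RA-LTMRs included 3 receptor genes. Pth1r, the parathyroid hormone receptor, stood between 15.7 and 33.8 CPM in Aβ RA-LTMR libraries, against 0.854, 1.62 and 1.07 CPM in Aβ Field-LTMR libraries (log2 fold change 4.50 ± 0.42, SE, adjusted p = 4.1e-08). Agtr2, an angiotensin II receptor, averaged 6.99 ± 1.7 CPM in Aβ RA-LTMRs and 0.413 ± 0.25 CPM in Aβ Field-LTMRs. Htr1f, an inhibitory serotonin receptor, averaged 21.9 ± 6.1 CPM in Aβ RA-LTMRs and 1.92 ± 1.9 CPM in Aβ Field-LTMRs. In all 3 receptor genes the libraries of the groups stood apart without overlap.

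Sema5b, a transmembrane semaphorin that guides axons, read 38.02, 20.9, 24.4, 31.8 and 37.7 CPM in Aβ RA-LTMR libraries, against 1.59, 3.04 and 1.51 CPM in Aβ Field-LTMR libraries. No Aβ Field-LTMR library came near the Aβ RA-LTMR range (log2 fold change 3.99 ± 0.45, SE, adjusted p = 5.8e-07). Calb2, calretinin, averaged 7.40 ± 3.9 CPM in Aβ RA-LTMRs and 0.431 ± 0.59 CPM in Aβ Field-LTMRs, the same direction as its relative Calb1. Lrrc7, a scaffold of postsynaptic densities, averaged 14.5 ± 2.7 CPM in Aβ RA-LTMRs and 1.00 ± 0.25 CPM in Aβ Field-LTMRs. Zfp618, a zinc finger gene, averaged 15.6 ± 3.5 CPM in Aβ RA-LTMRs and 1.21 ± 0.39 CPM in Aβ Field-LTMRs. The rest of the 12 were Asb2 (a ubiquitin ligase adaptor), Vstm2b (a membrane protein with an immunoglobulin fold) and Cyp2s1 (a cytochrome P450), with log2 fold changes of 3.75 to 3.92.

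The 12 leading genes lower in Aβ RA-LTMRs split by where else they are expressed. In 5 of them Aβ Field-LTMRs had the highest mean of the 8 subtypes, and in 6 the Aβ Field-LTMR mean exceeded both nociceptor means. Ikzf1, the Ikaros transcription factor (chromosome 11, mm10, 11685003 to 11772926, plus strand), is the clearest. It read 0.0726, 0.377, 0.534, 0.355 and 0 CPM in Aβ RA-LTMR libraries, against 36.2, 27.3 and 29.1 CPM in Aβ Field-LTMR libraries (log2 fold change -6.81 ± 0.80, SE, adjusted p = 1.2e-06). Outside this pair only Aβ SA1-LTMRs held more than 1 CPM, at a mean of 10.9, while both nociceptor means lay below 0.2 CPM.

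Igf1, insulin-like growth factor, averaged 1.43 ± 1.1 CPM in Aβ RA-LTMRs and 39.9 ± 7.0 CPM in Aβ Field-LTMRs (log2 fold change -4.77 ± 0.68, SE, adjusted p = 1.8e-05), and its nociceptor means were 0.0827 and 1.59 CPM. It was also present in Aβ SA1-LTMRs (10.7 CPM), Aδ-LTMRs (7.31 CPM) and proprioceptors (5.58 CPM). Dlgap2, a postsynaptic scaffold, averaged 0.125 ± 0.13 CPM in Aβ RA-LTMRs and 12.54 ± 5.4 CPM in Aβ Field-LTMRs. Sp100, a protein of nuclear bodies, averaged 0.0537 ± 0.035 CPM in Aβ RA-LTMRs and 5.01 ± 0.93 CPM in Aβ Field-LTMRs. Chrm1, a muscarinic acetylcholine receptor, averaged 0.0781 ± 0.098 CPM in Aβ RA-LTMRs and 7.22 ± 3.0 CPM in Aβ Field-LTMRs. These 5 genes were highest in Aβ Field-LTMRs, and with the nociceptor score as a covariate their log2 fold changes ran from -8.15 to -2.68, with only Sp100 still called (adjusted p = 0.013).

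Others of the 12 were also abundant in small-fibre subtypes. Ptgir, the prostacyclin receptor (chromosome 7, mm10, 16906490 to 16910905, plus strand), averaged 1.51 ± 1.0 CPM in Aβ RA-LTMRs and 79.2 ± 21 CPM in Aβ Field-LTMRs, and 106 CPM in peptidergic nociceptors. Its Aβ Field-LTMR mean was 74.4% of that nociceptor mean. With the nociceptor score as a covariate its log2 fold change was -1.96 and not called (adjusted p = 0.29), against -5.75 without it. Syt6, a synaptotagmin, read 3.99, 4.14, 5.69, 14.4 and 8.65 CPM in Aβ RA-LTMR libraries, against 288, 216 and 212 CPM in Aβ Field-LTMR libraries. That is 57.6% of its mean in nonpeptidergic nociceptors (log2 fold change -5.04 ± 0.39, SE, adjusted p = 3.3e-09).

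Fam19a4, a secreted TAFA protein known from C-LTMRs, had the smallest adjusted p of the named genes. It stood between 0.843 and 1.76 CPM in Aβ RA-LTMR libraries, against 40.3, 52.1 and 58.3 CPM in Aβ Field-LTMR libraries (log2 fold change -5.23 ± 0.28, SE, adjusted p = 7.8e-12), and at 260 CPM in C-LTMRs. Ptk2b (the kinase Pyk2), Serpinb8 (a serine protease inhibitor) and Shisa6 (an AMPA receptor auxiliary protein) had log2 fold changes of -5.63, -5.52 and -5.18, with Aβ Field-LTMR means at 32.8 to 61.6% of the higher nociceptor mean. Mrgprb4, a Mas-related receptor gene, was at most 0.156 CPM in Aβ RA-LTMR libraries and between 3.83 and 7.50 CPM in Aβ Field-LTMR libraries. It has close paralogs between which short reads may be divided, so its level is uncertain.

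**Figure D3:**
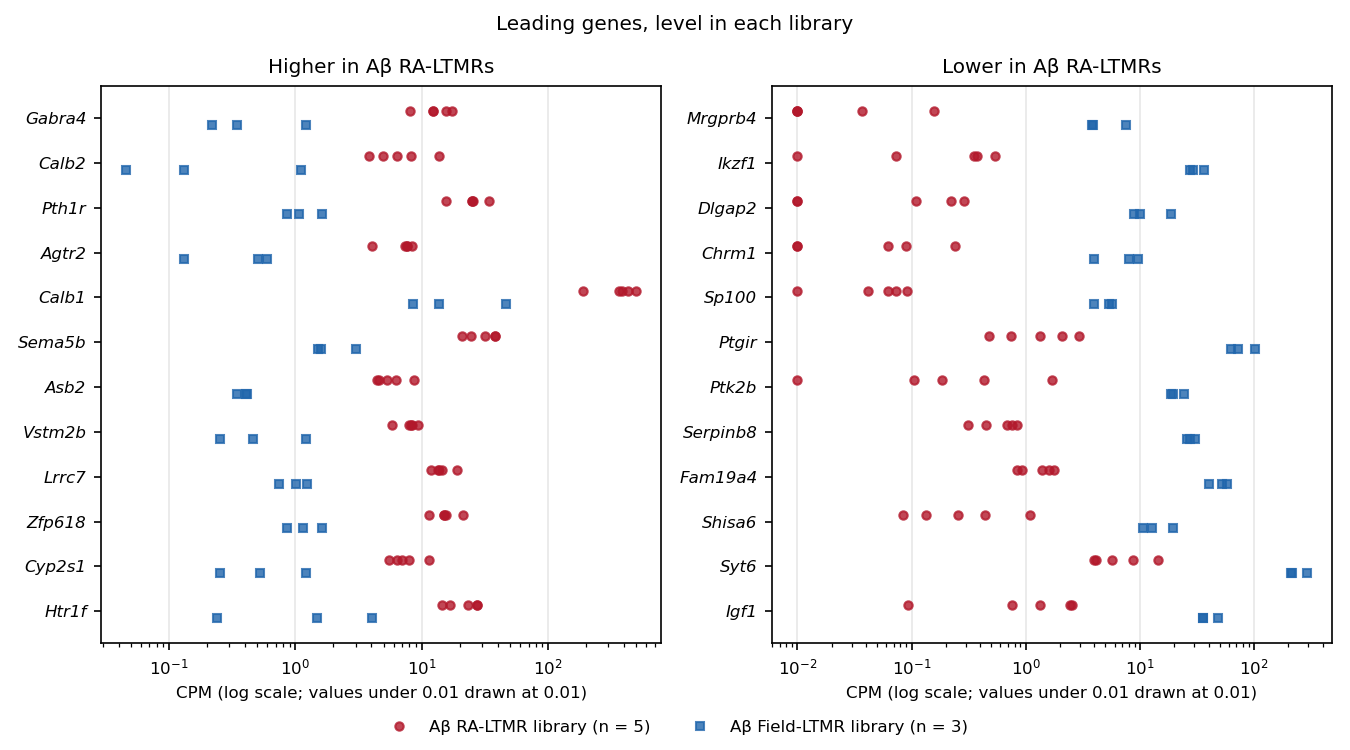
CPM on a log axis of the 12 leading genes higher (left panel) and the 12 lower (right panel) in Aβ RA-LTMRs; red circles are the 5 Aβ RA-LTMR libraries and blue squares the 3 Aβ Field-LTMR libraries. Circles and squares do not overlap for any of the 24 genes, which the choice of genes required.

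The GABA-gated channel genes that were called all stood higher in Aβ RA-LTMRs. GABA-A receptors on touch afferents carry presynaptic inhibition in the spinal cord. Of 18 GABA and glycine receptor genes tested, 6 were higher, namely Gabra3, Gabra4, Gabrb1, Gabrb2, Gabrg1 and Gabrg3, and 0 lower by edgeR and by DESeq2, with 2 lower at an unadjusted p under 0.05. The median log2 fold change of the list was 0.65, against 0.02 over all genes. In sum the list overlapped between the groups, at 1523 to 1927 CPM in Aβ RA-LTMR libraries and 1412 to 1541 CPM in Aβ Field-LTMR libraries. Gabrb1 averaged 4.69 ± 1.8 CPM in Aβ RA-LTMRs and 0.401 ± 0.27 CPM in Aβ Field-LTMRs (log2 fold change 3.81 ± 0.57, SE). The glutamate receptor list went less one way, with 1 higher and 3 lower of 23. Neto1, an auxiliary subunit of kainate and NMDA receptors, averaged 3.26 ± 1.5 CPM in Aβ RA-LTMRs and 43.9 ± 7.8 CPM in Aβ Field-LTMRs (log2 fold change -3.74 ± 0.33, SE), a level above both nociceptor means. Grik1, a kainate receptor subunit, averaged 9.72 ± 2.9 CPM in Aβ RA-LTMRs and 34.9 ± 13 CPM in Aβ Field-LTMRs. Its means in nonpeptidergic and peptidergic nociceptors were 437 and 35.1 CPM.

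Genes for potassium channels of the A-type (Kv4) group and their partner proteins were mostly lower in Aβ RA-LTMRs, with 5 of 9 lower and 1 higher and a median of -1.21. Kcnd3, the pore-forming subunit Kv4.3, read 35.2, 47.6, 50.1, 37.7 and 37.5 CPM in Aβ RA-LTMR libraries, against 219, 151 and 130 CPM in Aβ Field-LTMR libraries. The groups lay far apart (log2 fold change -2.001 ± 0.25, SE, adjusted p = 2.6e-06). Its partners Kcnip2 and Kcnip3, calcium-binding KChIP proteins, had log2 fold changes of -2.04 ± 0.30 and -1.43 ± 0.25. Kcnip3 averaged 208 ± 26 CPM in Aβ RA-LTMRs and 562 ± 67 CPM in Aβ Field-LTMRs, and its nociceptor means of 118 and 179 CPM were lower than in either group. Kcnip2 averaged 19.1 CPM in Aβ Field-LTMRs, and 327 and 49.9 CPM in nonpeptidergic and peptidergic nociceptors. Kcnd3 averaged 188 and 133 CPM in the same nociceptor subtypes and 1302 CPM in C-LTMRs. Dpp10, an auxiliary subunit that speeds Kv4 gating, was the member higher in Aβ RA-LTMRs (135 ± 19 CPM, against 61.5 ± 29 CPM in Aβ Field-LTMRs; adjusted p = 0.0032). Without Aβ Field-LTMR library 3 its log2 fold change was 0.88, under the size needed for a call.

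Kv2 channels and their silent subunits had 5 lower and 1 higher of 12 (3 lower by DESeq2). Kcnv1, a silent subunit, averaged 0.979 ± 1.3 CPM in Aβ RA-LTMRs and 21.6 ± 4.4 CPM in Aβ Field-LTMRs. Its means in nonpeptidergic and peptidergic nociceptors were 5.57 and 90.6 CPM. Kcnq5, which encodes a slow M-current channel of the Kv7 group, read 5.61, 8.03, 12.4, 10.5 and 4.78 CPM in Aβ RA-LTMR libraries, against 155, 97.6 and 91.5 CPM in Aβ Field-LTMR libraries. The Aβ Field-LTMR mean was the highest of the 8 subtypes, above 62.2 CPM in peptidergic nociceptors (log2 fold change -3.80 ± 0.32, SE, adjusted p = 1.1e-08). Kcnt1, a sodium-activated potassium channel, had a log2 fold change of -1.75 ± 0.20. It averaged 66.2 CPM in Aβ Field-LTMRs, and 318 and 121 CPM in nonpeptidergic and peptidergic nociceptors.

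Calls on genes for background and rectifying potassium channels and their partners leaned to Aβ RA-LTMRs. Of 11 two-pore channel genes, 3 were higher and 0 lower by edgeR and DESeq2, with 1 lower at an unadjusted p under 0.05, and of 13 inward rectifiers and partners 5 were higher and 2 lower. Kcnk1 (TWIK) averaged 154 ± 44 CPM in Aβ RA-LTMRs and 58.6 ± 10 CPM in Aβ Field-LTMRs. Kcnk3 (TASK) averaged 24.5 ± 8.2 CPM in Aβ RA-LTMRs and 7.12 ± 1.4 CPM in Aβ Field-LTMRs. In both genes, and in the inward rectifier Kcnj4 (3.64 ± 1.9 CPM in Aβ RA-LTMRs, 0.328 ± 0.20 CPM in Aβ Field-LTMRs), Aβ RA-LTMR library 5 stood above the other 4. Kcnj14, another inward rectifier, was lower, at 0.135 ± 0.14 CPM in Aβ RA-LTMRs and 2.84 ± 1.2 CPM in Aβ Field-LTMRs. Kcnab1, a cytosolic partner of Kv1 channels, had a log2 fold change of 1.52 ± 0.22 and Hcn4, a pacemaker channel, one of 2.14 ± 0.26 (8.37 ± 2.4 CPM in Aβ RA-LTMRs, 1.94 ± 0.60 CPM in Aβ Field-LTMRs).

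Sodium channels and their partners had 2 higher and 5 lower of 19. Scn10a and Scn11a, both on the nociceptor list, were lower. So was Fgf14, an intracellular modulator of sodium channels, at 1.17 ± 0.69 CPM in Aβ RA-LTMRs and 8.38 ± 0.47 CPM in Aβ Field-LTMRs (log2 fold change -2.81 ± 0.54, SE). Its means in nociceptors were 0.322 and 3.84 CPM.

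Calcium channels had 4 higher and 4 lower of 23, with a median of 0.01. Cacnb2, an auxiliary β subunit, averaged 22.6 ± 3.5 CPM in Aβ RA-LTMRs and 9.47 ± 1.1 CPM in Aβ Field-LTMRs. Cacna1c, an L-type pore, averaged 3.71 ± 0.96 CPM in Aβ RA-LTMRs and 15.5 ± 7.9 CPM in Aβ Field-LTMRs, and Cacna2d1, the gabapentin-binding subunit, 39.1 ± 14 and 97.2 ± 26 CPM in the same order. Both were higher still in nociceptors (69.9 and 138 CPM for Cacna1c in the nonpeptidergic and peptidergic subtypes).

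Anoctamin genes differed in opposite directions. Ano1, a calcium-activated chloride channel, averaged 28.6 ± 2.7 CPM in Aβ RA-LTMRs and 8.41 ± 2.4 CPM in Aβ Field-LTMRs (log2 fold change 1.78 ± 0.35, SE). Ano3, an anoctamin regarded as a lipid scramblase, averaged 138 ± 21 CPM in Aβ RA-LTMRs and 417 ± 85 CPM in Aβ Field-LTMRs (log2 fold change -1.60 ± 0.14, SE, adjusted p = 1.4e-08). Its means in nonpeptidergic and peptidergic nociceptors were 1501 and 365 CPM. Piezo2, the main mechanotransduction channel of touch and named here after its values were seen, was not called. It averaged 501 ± 104 CPM in Aβ RA-LTMRs and 739 ± 284 CPM in Aβ Field-LTMRs (log2 fold change -0.56 ± 0.20, SE, adjusted p = 0.059), with overlapping libraries, and the fold change was -0.20 without Aβ Field-LTMR library 1.

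**Figure D4:**
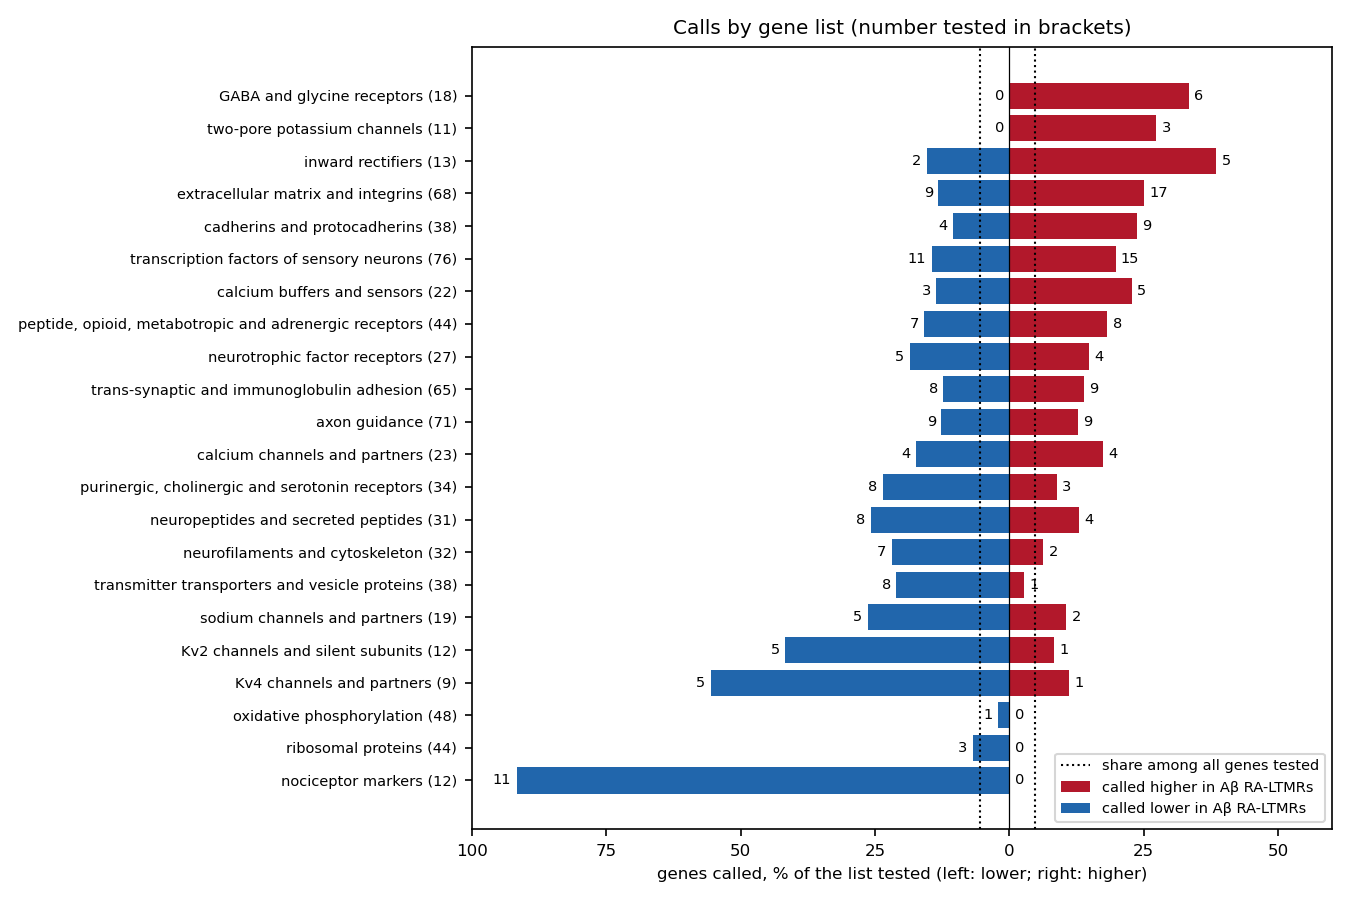
Share of tested genes called higher (red, right) and lower (blue, left) in Aβ RA-LTMRs for 22 of the 49 gene lists, with the number of genes called at the end of each bar and dotted lines at the shares among all genes, 4.80% higher and 5.47% lower. GABA and glycine receptors (6 of 18) lie on the higher side, Kv4 channels and partners (5 of 9) and nociceptor markers (11 of 12) on the lower side.

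Receptors for transmitters and peptides divided between the groups. Purinergic, cholinergic and serotonin receptors had 3 higher and 8 lower of 34. Htr3b, a subunit of the serotonin-gated channel, averaged 31.7 ± 5.2 CPM in Aβ RA-LTMRs and 5.90 ± 0.98 CPM in Aβ Field-LTMRs (log2 fold change 2.44 ± 0.34, SE). P2rx5, an ATP-gated channel, averaged 15.4 ± 3.5 CPM in Aβ RA-LTMRs and 5.94 ± 1.4 CPM in Aβ Field-LTMRs. Chrm2, a muscarinic receptor that couples to inhibitory G proteins, went the other way. It lay between 10.1 and 17.4 CPM in Aβ RA-LTMR libraries, against 164, 117 and 100 CPM in Aβ Field-LTMR libraries (log2 fold change -3.29 ± 0.32, SE, adjusted p = 5.5e-08), and its nociceptor means were 0.343 and 36.7 CPM.

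Peptide, opioid and metabotropic receptors had 8 higher and 7 lower of 44. Cckar, a cholecystokinin receptor, lay between 78.6 and 102 CPM in Aβ RA-LTMR libraries, against 8.81, 22.1 and 5.03 CPM in Aβ Field-LTMR libraries (log2 fold change 2.95 ± 0.38, SE, adjusted p = 4.4e-06). Tacr3, the neurokinin B receptor, averaged 16.6 ± 5.6 CPM in Aβ RA-LTMRs and 2.01 ± 1.4 CPM in Aβ Field-LTMRs. Grm7, a presynaptic metabotropic glutamate receptor, was lower with little spread, at 7.46 ± 1.6 CPM in Aβ RA-LTMRs and 44.6 ± 4.6 CPM in Aβ Field-LTMRs (log2 fold change -2.58 ± 0.18, SE). Agtr1a, an angiotensin II receptor, fell to 0.353 ± 0.23 CPM in Aβ RA-LTMRs, against 5.07 ± 3.3 CPM in Aβ Field-LTMRs, opposite to Agtr2. Agtr1a averaged 86.5 and 5.10 CPM in nonpeptidergic and peptidergic nociceptors. Oprm1, the µ-opioid receptor, averaged 2.20 ± 1.2 CPM in Aβ RA-LTMRs and 12.01 ± 5.5 CPM in Aβ Field-LTMRs, and 242 CPM in peptidergic nociceptors. Its call ended with Aβ RA-LTMR libraries 4 and 5 alone (-2.01, adjusted p = 0.081).

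Secreted peptides had 4 higher and 8 lower of 31. Cbln2, a synapse organizer of the same family as Cbln4, lay between 57.0 and 68.1 CPM in Aβ RA-LTMR libraries, against 4.64, 10.3 and 3.28 CPM in Aβ Field-LTMR libraries (log2 fold change 3.44 ± 0.50, SE, adjusted p = 2.6e-05). Cck, cholecystokinin, averaged 3.06 ± 1.3 CPM in Aβ RA-LTMRs and 0.0719 ± 0.044 CPM in Aβ Field-LTMRs. The higher side thus held both Cck and the receptor gene Cckar. Fam19a1, a TAFA relative of Fam19a4, averaged 22.8 ± 3.2 CPM in Aβ RA-LTMRs and 173 ± 20 CPM in Aβ Field-LTMRs (log2 fold change -2.92 ± 0.41, SE), the highest of the 8 subtypes. Nmb, neuromedin B, was lower at 7.25 ± 5.8 CPM in Aβ RA-LTMRs and 89.3 ± 17 CPM in Aβ Field-LTMRs, with 560 CPM in nonpeptidergic nociceptors. Calca and Tac1, the precursors of the pain peptides CGRP and substance P, were lower as part of the nociceptor list. The call on Tac1 ended with Aβ RA-LTMR libraries 4 and 5 alone (-1.39, adjusted p = 0.062).

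Neurotrophic factor receptors had 4 higher and 5 lower of 27. Beside Ntrk2, Sorcs1, a sorting receptor, was higher (47.2 ± 10 CPM in Aβ RA-LTMRs, 15.5 ± 4.2 CPM in Aβ Field-LTMRs). Gfra1, the GDNF co-receptor of Ret, read 61.9, 87.1, 82.3, 71.3 and 51.8 CPM in Aβ RA-LTMR libraries, against 406, 194 and 306 CPM in Aβ Field-LTMR libraries. Its Aβ Field-LTMR mean was the highest of the 8 subtypes (log2 fold change -2.09 ± 0.23, SE, adjusted p = 5.3e-07). Gfra3, a further co-receptor of Ret, averaged 2.39 ± 1.2 CPM in Aβ RA-LTMRs and 6.18 ± 2.5 CPM in Aβ Field-LTMRs, with overlapping libraries (log2 fold change -1.35, adjusted p = 0.024). Its call ended with Aβ RA-LTMR libraries 4 and 5 alone (-0.94, adjusted p = 0.23), with the glia score (adjusted p = 0.070) and in 4 of the 8 single omissions (Aβ RA-LTMR library 1 or 2, Aβ Field-LTMR library 2 or 3; adjusted p = 0.056 to 0.11). Gfra2 was not called.

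Transcription factors of sensory neurons had 15 higher and 11 lower of 76, with a median of 0.40. Tbx3, a T-box repressor, read 111, 111, 111, 135 and 110 CPM in Aβ RA-LTMR libraries, against 14.2, 17.8 and 7.59 CPM in Aβ Field-LTMR libraries. Aβ RA-LTMRs were far above Aβ Field-LTMRs in every library (log2 fold change 3.15 ± 0.35, SE, adjusted p = 6.1e-07). Nr5a2, a nuclear receptor, averaged 4.21 ± 1.8 CPM in Aβ RA-LTMRs and 0.181 ± 0.085 CPM in Aβ Field-LTMRs, and Onecut3, a homeobox factor, 2.03 ± 0.66 and 0.111 ± 0.12 CPM in the same order. Onecut3 had a log2 fold change of 4.15, and of 6.36 without Aβ Field-LTMR library 1. Pou4f2, Rora, Rorb, Shox2, Sox6 and Tlx3 were among the others called higher, of which Rora and Sox6 were not called with the glia score.

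On the lower side, Bcl11b (Ctip2), a zinc finger regulator, averaged 1.22 ± 0.18 CPM in Aβ RA-LTMRs and 30.6 ± 15 CPM in Aβ Field-LTMRs (log2 fold change -4.63 ± 0.38, SE, adjusted p = 6.3e-09). Its mean in peptidergic nociceptors was 34.6 CPM. Tshz2, another zinc finger factor, averaged 2.79 ± 2.2 CPM in Aβ RA-LTMRs and 22.1 ± 5.6 CPM in Aβ Field-LTMRs. Its means in nonpeptidergic and peptidergic nociceptors were 99.7 and 66.9 CPM. Among 30 Hox genes, which set position along the body axis, 1 was higher, 2 were lower and 27 were not called. These counts are near the shares over all genes tested, 4.80% higher and 5.47% lower. Hoxa5 averaged 4.84 ± 0.39 CPM in Aβ RA-LTMRs and 1.51 ± 0.36 CPM in Aβ Field-LTMRs, and Hoxd1 averaged 22.1 ± 4.0 CPM in Aβ RA-LTMRs and 81.2 ± 10 CPM in Aβ Field-LTMRs.

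Calcium buffers and sensors had 5 higher and 3 lower of 22. Calb1 and Calb2 led the higher side, and S100a6 the lower, at 25.9 ± 17 CPM in Aβ RA-LTMRs and 171 ± 54 CPM in Aβ Field-LTMRs. S100a6 averaged 1935 and 264 CPM in nonpeptidergic and peptidergic nociceptors. Transmitter transporters and vesicle proteins had 1 higher and 8 lower of 38. The gene that was higher, Slc17a7 (the vesicular glutamate transporter VGLUT1 of large afferents), averaged 245 ± 39 CPM in Aβ RA-LTMRs and 65.4 ± 6.6 CPM in Aβ Field-LTMRs (log2 fold change 1.90 ± 0.27, SE, adjusted p = 1.5e-05). It stood at 1.48 and 6.62 CPM in nociceptors, so both Aβ groups lay above them. Syt7, a slow calcium sensor for release, averaged 11.5 ± 6.2 CPM in Aβ RA-LTMRs and 90.3 ± 39 CPM in Aβ Field-LTMRs, with 665 CPM in nonpeptidergic nociceptors.

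Genes for contact with other cells and matrix changed in both directions. Extracellular matrix genes and integrins had 17 higher and 9 lower of 68, with a median of 0.85. Cadherins and protocadherins had 9 higher and 4 lower of 38, with a median of 0.49. Itga6, the α6 chain of laminin-binding integrins, averaged 93.5 ± 18 CPM in Aβ RA-LTMRs and 16.6 ± 8.0 CPM in Aβ Field-LTMRs (log2 fold change 2.51 ± 0.25, SE, adjusted p = 1.2e-07). Laminin and nidogen genes of basement membranes (Lama2, Lama4, Lamc1, Nid1, Nid2) were on the higher side too. In the fit that holds the satellite glia score, 3 of the 17 matrix and integrin genes were also called higher, namely Itga6 (2.28, adjusted p = 2.0e-06), Spp1 (1.81, adjusted p = 0.020) and Lama4, against 7 of the 9 lower ones, and 5 of the 9 higher cadherin genes were. Of 9 fibroblast markers, 2 were higher as well, and the list summed to 33.5 to 69.5 CPM in Aβ RA-LTMR libraries and 16.6 to 28.3 CPM in Aβ Field-LTMR libraries. The part of fibroblast RNA in the matrix genes was not tested. Spp1, the secreted matrix protein osteopontin, averaged 69.0 ± 22 CPM in Aβ RA-LTMRs and 13.9 ± 5.8 CPM in Aβ Field-LTMRs. Vcan, the proteoglycan versican, was lower, at 0.833 ± 0.73 CPM in Aβ RA-LTMRs and 9.61 ± 0.78 CPM in Aβ Field-LTMRs.

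Cdh13, a lipid-anchored cadherin, averaged 36.2 ± 6.3 CPM in Aβ RA-LTMRs and 5.22 ± 0.67 CPM in Aβ Field-LTMRs (log2 fold change 2.78 ± 0.27, SE, adjusted p = 6.7e-08). Pcdh11x, a protocadherin, had a log2 fold change of 2.28 ± 0.34, and Cdh9, a classical cadherin, one of -2.79 ± 0.41. Immunoglobulin and trans-synaptic adhesion genes were near even, with 9 higher and 8 lower of 65. Kirrel3 and Sdk2, both homophilic adhesion proteins, averaged 37.6 ± 3.2 and 32.1 ± 6.8 CPM in Aβ RA-LTMRs, against 7.29 ± 2.6 and 5.91 ± 2.5 CPM in Aβ Field-LTMRs. Chl1, an L1-family adhesion molecule, went the other way, at 28.8 ± 9.5 CPM in Aβ RA-LTMRs and 315 ± 39 CPM in Aβ Field-LTMRs (log2 fold change -3.45 ± 0.32, SE, adjusted p = 4.1e-08). It is also on the list of non-myelinating Schwann cell markers, which had 1 higher and 2 lower of 7. Negr1, a GPI-anchored adhesion protein, averaged 25.4 ± 9.2 CPM in Aβ RA-LTMRs and 128 ± 8.4 CPM in Aβ Field-LTMRs.

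Axon guidance genes had 9 higher and 9 lower of 71. Unc5d, a netrin-family receptor, averaged 35.2 ± 12 CPM in Aβ RA-LTMRs and 4.001 ± 3.1 CPM in Aβ Field-LTMRs (log2 fold change 3.16 ± 0.54, SE, adjusted p = 0.00014). The class 5 semaphorins differed in direction. Sema5a averaged 131 ± 34 CPM in Aβ RA-LTMRs and 383 ± 199 CPM in Aβ Field-LTMRs (log2 fold change -1.55 ± 0.27, SE), whereas Sema5b was among the leading genes on the higher side. Epha3, an ephrin receptor, averaged 0.397 ± 0.13 CPM in Aβ RA-LTMRs and 6.06 ± 1.0 CPM in Aβ Field-LTMRs.

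The neuronal cytoskeleton list had 2 higher and 7 lower of 32. Sptb, a spectrin of the membrane skeleton, averaged 88.8 ± 12 CPM in Aβ RA-LTMRs and 14.2 ± 4.6 CPM in Aβ Field-LTMRs (log2 fold change 2.66 ± 0.27, SE, adjusted p = 1.1e-07). Gap43, a growth-cone protein that adult neurons keep at low levels or raise on injury, read 4.92, 9.44, 13.1, 13.5 and 12.3 CPM in Aβ RA-LTMR libraries, against 138, 163 and 184 CPM in Aβ Field-LTMR libraries. The lowest Aβ Field-LTMR library exceeded the highest Aβ RA-LTMR library by a wide margin (log2 fold change -3.93 ± 0.28, SE, adjusted p = 9.1e-10). Peptidergic nociceptors held more, at 372 CPM. Oxidative phosphorylation and ribosomal protein genes mostly were not called: 0 higher and 1 lower of 48, and 0 higher and 3 lower of 44, with the same counts by DESeq2. At an unadjusted p under 0.05, 11 oxidative phosphorylation genes were higher and 1 lower, and 6 ribosomal protein genes were higher and 6 lower.

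A second pair of subtypes, in 6 libraries that the first pair does not share, gave values to set beside these. Aδ-LTMRs also form lanceolate endings. They came from TrkBCreER;R26tdtomato(Ai14) mice given tamoxifen at 2 mg per day on embryonic days 12 and 13. Aβ SA1-LTMRs, which end on Merkel cells, came from the same driver and reporter as Aβ Field-LTMRs, with tamoxifen at 3 mg per day, also given before birth. Subtype, driver, reporter and dose therefore changed together in the second pair too. In Aδ-LTMRs over Aβ SA1-LTMRs, 2355 genes were higher (13.5%) and 894 lower (5.13%). Of the 836 genes higher in Aβ RA-LTMRs than in Aβ Field-LTMRs, 235 were also higher in Aδ-LTMRs (28.1% of the 836, 9.98% of the 2355) and 95 were lower (11.4% of the 836, 10.6% of the 894). Of the 953 genes lower in Aβ RA-LTMRs, 144 were also lower in Aδ-LTMRs (15.1% of the 953, 16.1% of the 894) and 223 were higher (23.4% of the 953, 9.47% of the 2355). Each share stands above the share of all genes called that way in the second pair, including both opposite directions, and the overlaps are given with no test.

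The shared genes, named here after their values were seen, included several that led the first pair. Calb1 averaged 94.95 CPM in Aδ-LTMRs and 6.42 CPM in Aβ SA1-LTMRs, Tbx3 233 and 17.4 CPM, and Sema5b 48.5 and 4.99 CPM in the same order. Ntrk2 was also higher in Aδ-LTMRs, whose line uses the TrkB locus to drive Cre, so it is no free observation there. Cbln4, Calb2, Zfp618, Htr3b, Tacr3, Cdh13, Kirrel3, Sdk2, Unc5d and Itga6 were higher in both pairs, and Ikzf1, Dlgap2, Kcnq5, Chrm2, Gfra1, Fam19a1, Chl1 and Negr1 lower in both. Agtr2, Pth1r, Lrrc7, Vstm2b and Ano1 were opposite, higher in Aβ RA-LTMRs and lower in Aδ-LTMRs (log2 fold changes for Agtr2 of 4.14 and -1.96). Read-length class differed completely between Aδ-LTMR and Aβ SA1-LTMR libraries. With it as a covariate 597 and 280 genes were called in the second pair, and the shared counts were 105 higher in both and 56 lower in both, against 22 and 40 in opposite directions.

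**Figure D5:**
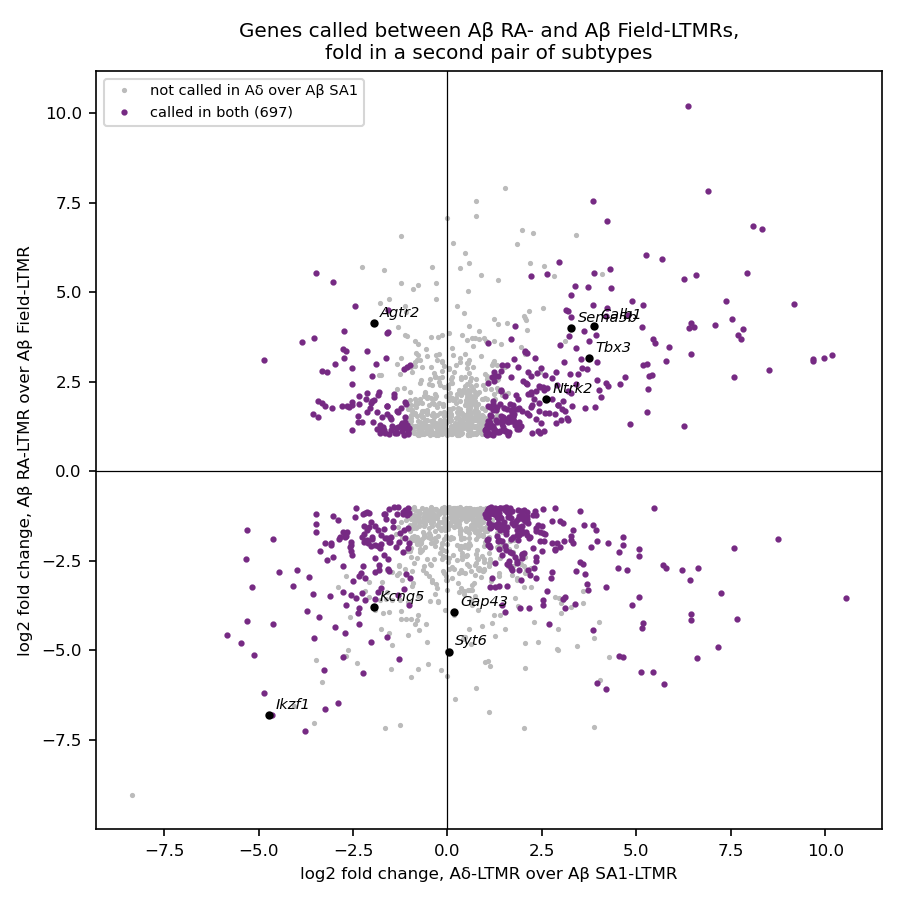
Log2 fold change of Aβ RA-LTMR over Aβ Field-LTMR (y axis) against Aδ-LTMR over Aβ SA1-LTMR (x axis) for the genes called in the first pair; purple points are also called in the second pair. Calb1, Sema5b, Tbx3 and Ntrk2 lie at the upper right, Ikzf1 and Kcnq5 at the lower left, Agtr2 at the upper left, and Gap43 and Syt6 near 0 on the x axis.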

How the data were processed

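Per the labels' protocols, sorted neurons were kept in RNAlater, their RNA was amplified by a NuGEN method, and an Illumina TruSeq kit was used for the libraries. The submitters' processing notes list the aligner STAR, FastQC 0.11.3, the counter HTSeq 0.6.1, Cuffdiff, DESeq2 1.14.1 and the mouse build mm10, without saying what each was used for, so how reads were assigned to overlapping genes, paralogs and strands is not given in the sources used here. The deposited gene counts, per the file headers 1 column per library, were the base of all tests. The deposited RPKM values and the deposited rlog values, which are on a log2 scale, served as alternatives. An alignment summary by the authors gave read-length ranges, read counts, the 5'-3' bias ratio, GC percent and the fraction of reads that were exonic, intronic or mapped.

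Of 39017 genes, 17411 passed edgeR's filterByExpr over the 8 subtypes. A robust quasi-likelihood model with TMM scaling (edgeR 4.0.16, R 4.3.3) was fitted to all 26 libraries, and Aβ RA-LTMR minus Aβ Field-LTMR was tested, with Aδ-LTMR minus Aβ SA1-LTMR as a second contrast. A gene was called at an adjusted p below 0.05 and a log2 fold change of at least 1 in size. The SE is the fold change divided by the root of the F statistic. CPM carries no correction for gene length, so levels are compared within a gene only. Counts were simulated with the same library sizes, a shared mean per gene for both groups and a spread smoothed over genes. The changed genes were drawn from those averaging at least 5 CPM over both groups. Of these, 97 of 100 changed by 1.5 (log2) and 100 of 100 changed by 3 were called, with 4 unchanged genes. Genes at lower levels, or with a spread above the smoothed value, were not tried. limma 3.58.1 and DESeq2 1.42.0 gave alternatives.

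Named genes were the labelling genes, the Aβ RA-LTMR markers, the 12 leading genes in each direction (with more than 3 counts in the lower group and the same direction with Aβ RA-LTMR libraries 4 and 5 alone) and up to 3 called genes in each direction per list, averaging at least 2 CPM in the higher group. The leading genes exclude symbols of the form Gm plus digits, symbols ending in Rik and genes with an identifier alone. They also exclude sex-linked genes, mitochondrially encoded genes and genes on the lists of non-neuronal cell types. Not every gene that the rule takes is printed. The comparison, the 49 gene lists and the rules were chosen with earlier results of these data known. Gene positions are from GENCODE vM21 on mm10 and promoter windows from RefSeq; 12663 of the 17411 genes matched a window.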

Additional observations from a re-analysis of the deposited data

Results flagged for a closer look

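In 13 of 110 genes examined, 1 of the 5 Aβ RA-LTMR libraries stood apart from the other 4 by Dixon's test at the 95% level, which chance alone gives in about 1 of 20 groups. Aβ Field-LTMRs, with 3 libraries, were not tested in this way.

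Aβ RA-LTMR library 5 stood apart in 6 of them. It was high for Apoe (2058 CPM, the other 4 at 624 to 1023), for the potassium channels Kcnk1 (232 CPM, the others 127 to 143), Kcnk3 (38.5 CPM, the others 17.4 to 23.2) and Kcnj4 (6.96 CPM, the others 2.01 to 3.13), for the calcium sensor S100a6 (56.2 CPM, the others 15.4 to 20.6) and for Mrgprb4 (0.156 CPM, the others at most 0.0368). Its Kcnk1, Kcnk3, Kcnj4 and Apoe values lay further from the Aβ Field-LTMR range, and its S100a6 and Mrgprb4 values closer to it. This library also had the lowest exonic share of the 5.

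Aβ RA-LTMR library 4 was high for the nociceptor genes P2rx3 (10.1 CPM, the others 3.81 to 4.53) and Lpar3, a lysophosphatidic acid receptor (4.18 CPM, the others 0.586 to 1.51), and for Ptk2b (1.69 CPM, the others at most 0.435), Kcnv1 (3.20 CPM, the others 0.218 to 0.663) and Tbx3 (135 CPM, the others 109.6 to 111). In library 3 the irritant receptor gene Trpa1 was high (5.84 CPM, the others 1.44 to 2.18), and in library 2 Agtr2 was low (4.04 CPM, the others 7.33 to 8.33). In all 13 genes the library that stood apart still lay on its own side of the Aβ Field-LTMR range.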

How the results depend on the processing

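Counts of calls were within 1.5 times those reported under all but 3 of the alternatives for the first pair, single omissions included. In the fit that holds the satellite glia score 446 genes were higher and 755 lower (407 and 660 of them the same genes). On log2(RPKM + 1) they were 383 and 381 (302 and 330 the same genes), with fold changes compressed by the pseudocount. With the nociceptor score, an alternative chosen after seeing the data, they were 59 and 68. Leaving out each library in turn gave 584 to 848 genes higher and 787 to 960 lower, with the fewest higher without Aβ Field-LTMR library 3. The higher share of all calls was 46.7%, and 55.6% on library totals and 56.8% on log2(RPKM + 0.1). DESeq2 gave 1044 and 1018, Aβ RA-LTMR libraries 4 and 5 alone 808 and 943 (584 and 611 the same genes). In the second pair 3249 genes were called, and 877 with read-length class, 1316 with the glia score and 1298 on log2(RPKM + 1); omissions of libraries of the first pair gave 3198 to 3431. The cause of these shifts was not tested.

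Same-numbered libraries did not deviate together (r = 0.03, -0.05 and -0.14), and differently numbered ones ran from -0.13 to 0.19. So few values cannot settle whether the numbers pair libraries. With the replicate number as a block 754 genes were higher, 880 lower and 3309 different in the second pair. Of the 836 and the 953 genes, 659 and 714 kept their call with this block.

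Of 105 called genes named here, 26 were also called with the nociceptor score, 18 of them higher and 8 lower; they include Gabra4, Pth1r, Sema5b, Zfp618, Tbx3, Itga6 and Sptb on the higher side and Sp100, Serpinb8, Fam19a4, Syt6, Ano3, Grm7, Neto1 and Gap43 on the lower. No nociceptor marker was among the 26, which follows from the score being their own mean. With that score the log2 fold changes of Scn10a (0.97), Calca (1.22), Mrgprd (0.93), Trpv1 (1.00), Cacna1c (0.15), Gfra3 (0.76) and Oprm1 (1.80) were positive and not called. Gfra2 and Plxnc1, not called in the first place, turned negative with the glia score (-0.42 and -0.048) and without Aβ Field-LTMR library 3; single omissions gave -0.23 to 0.42 for Gfra2 and -0.24 to 0.57 for Plxnc1. With 3 Aβ Field-LTMR libraries, of which 1 has 10706522 counts, genes near 1 CPM rest on few reads there.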
